A study of Rattus norvegicus with 3 samples.

Results

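The unstimulated array of a study of cultured neonatal rat ventricular myocytes was 1 of its 3 arrays, and it was chosen by its sample title. These muscle cells were isolated from the ventricles of newborn rats and kept in culture for 48 h without an added compound, whereas the other 2 arrays came from cells given 20 µM phenylephrine or 1 µM PAMH and were not analysed here. Total RNA was measured on an Affymetrix rat array, on which each probe set is a group of short probes. Most probe sets are assigned to 1 gene, and the others to several or to none. The labels give no strain, number of animals, medium or serum, and no count of the cells that were not myocytes. With 1 array there was no replicate, so no value below has an error or a test, and precision is limited by there being a single array.

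The newborn rodent heart is changing from fetal to adult forms of its contractile and metabolic proteins. Myosin heavy chain passes from the β form to the α form around birth, troponin I passes from the slow skeletal to the cardiac form, and fuel use moves from glucose and lactate towards fatty acids. Dispersed newborn myocytes attach, spread and beat in culture, and preparations of them usually carry some fibroblasts, smooth muscle cells and endothelial cells.

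Signal intensity, on a linear scale, was read for 15866 non-control probe sets, which carried between them 10411 genes with a probe set of their own. Each gene was represented by its brightest probe set. The gene signals ran from 0.20 to 12945 with a median of 150.6. The background floor used throughout was percentile 40 of those probe sets, a signal of 81, and 6935 genes (66.6%) lay at or above it. The brightest 10% were 1041 genes with a signal of at least 802, and they held 54.2% of the summed gene signal. A percentile below is the share of genes with a lower signal, so the median over all genes is 50 by construction.

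Other measurements on the same array show what these signals can bear. Of 61 genes restricted to other organs, such as Alb of liver, Gcg of the pancreatic islet and Prl of the pituitary, 12 (19.7%) lay at or above the floor, none lay in the brightest 10%, and their percentile 90 was a signal of 90.3. The 27 control probe sets for Bacillus transcripts read between 0.70 and 36.4, while the control probe sets for the bioB, bioC, bioD and cre transcripts, which the manufacturer's standard kit adds in rising amounts, had medians of 241, 503, 2029 and 8309. For the 1141 genes with exactly 2 probe sets and the brighter one at or above the floor, the median gap between the probe sets was 0.95 on the log2 scale and percentile 90 was 2.54, or 5.81-fold. An isoform pair is called clearly apart below only where its gap, with signals under the floor raised to it, exceeds this percentile 90. Of the gaps within genes 47.6% exceeded 2-fold, so a difference in signal between genes is not a measured difference in RNA, and log2 gaps between genes are given only for isoform pairs, as descriptions read against this spread. Genes with several probe sets had a median percentile of 61.4 and genes with 1 probe set 47.3; of several, the brightest was taken.

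The most abundant signals came from the contractile apparatus, the ribosome and the mitochondrion. Of the 30 genes of highest signal, 10 belonged to the lists for the thick and thin filaments, the Z-disc and calcium cycling, 9 were cytosolic ribosomal proteins and 4 belonged to the lists for oxidative phosphorylation and mitochondrial carriers. COX2, a cytochrome oxidase subunit encoded in mitochondrial DNA, was first with a signal of 12945, followed by Myh6, the α myosin heavy chain, at 11717 and Eef1a1, the elongation factor that brings aminoacyl-tRNA to the ribosome, at 11293. Tnnc1, the calcium sensor troponin C of slow and cardiac muscle, read 10574, the mitochondrially encoded COX1 10572, and Myl2, the ventricular regulatory light chain of myosin, 10236. Ankrd1, a stretch-responsive ankyrin repeat protein of the sarcomere and nucleus, read 10166 and was the highest Z-disc gene. The next places were held by Myh7, the β myosin heavy chain (9887), Tnnt2, cardiac troponin T (9574), and Pln, phospholamban, the inhibitor of the sarcoplasmic reticulum calcium pump (9424).

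Ribosomal proteins filled much of the next part of the ranking, with Rps29 at 9068, Rpl7a at 8798, Rpl37a at 8340, Rpl3 at 8206, Rps23 at 7846, Rps6 at 7423, Rps3a at 7375, Rpl23 at 7313 and Rpl26 at 7286. Between them stood Tpm1, α-tropomyosin (8772), Slc25a4, the heart and muscle adenine nucleotide translocator (8434), Atp5f1b, the catalytic β subunit of ATP synthase (8331), and Nppa, which encodes atrial natriuretic peptide (8022). Myl3, the ventricular essential light chain, read 7782 and Atp2a2, the calcium pump of the cardiac sarcoplasmic reticulum, 7777. S100a4, a calcium-binding protein often used as a mark of fibroblasts and leukocytes, was in rank 22 with 7651, and it belonged to none of the lists. Gja1, connexin 43 of the gap junction, read 7323, Cox6c of cytochrome oxidase 7317, Oaz1, the antizyme that limits polyamine synthesis, 7184, and Atp5mc3, a membrane ring subunit of ATP synthase, 7158. The 30 genes together held 6.76% of the summed gene signal, and the brightest 100 genes held 16.3%.

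**Figure D1:**
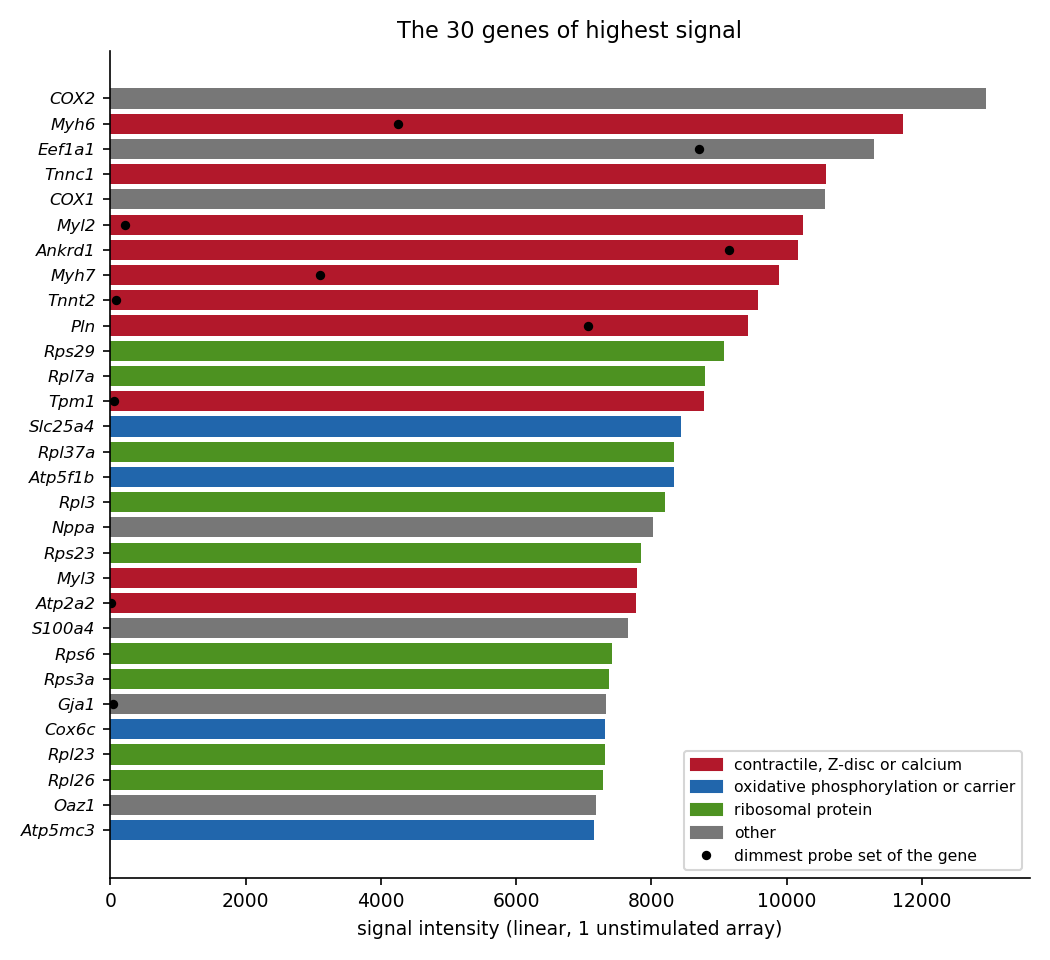
Signal of the 30 brightest genes on a linear axis from 0, coloured by the kind of list a gene belonged to; a black point marks the dimmest probe set of a gene with more than 1. COX2 leads with 12945, and the dimmest probe sets of Myl2, Tnnt2, Tpm1, Atp2a2 and Gja1 lie near 0 although their brightest are among the 30 highest signals.

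Several leading genes had other probe sets far below the brightest. Myl2 had a second probe set at 219 and Tnnt2 one at 82, just above the floor. The 6 probe sets of Tpm1 read 8772, 8223, 5898, 1001, 75.6 and 52.8, and the 4 of Atp2a2 read 7777, 2001, 514 and 5.5. Alternative transcripts of both genes are known, and which transcript each probe set matches was not tested. Pln (9424 and 7056) and Ankrd1 (10166 and 9145) had probe sets that lay close together. Of 274 genes in the brightest 10% with several probe sets, 48 (17.5%) had 1 below the floor.

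The 250 bases before the annotated start are shown for Nppa, Myl3 and Acta1, the skeletal α-actin gene (signal 5075), because these bright cardiac genes differ in which of 3 searched motifs their promoters hold. The sequences are RefSeq's on assembly GRCr8, read 5′ to 3′ on the strand of the gene, and capitals mark TATAAA (the core of the TATA box), CATTCCT (a form of the MCAT element, to which TEAD factors bind) and GGGCGG (the core of the GC box), each searched on both strands. The 3 motifs did not overlap in these stretches. They lie at chr5:163711934-163712183 on the plus strand for Nppa, chr8:119616844-119617093 on the plus strand for Myl3 and chr19:68784195-68784444 on the minus strand for Acta1.
Nppa: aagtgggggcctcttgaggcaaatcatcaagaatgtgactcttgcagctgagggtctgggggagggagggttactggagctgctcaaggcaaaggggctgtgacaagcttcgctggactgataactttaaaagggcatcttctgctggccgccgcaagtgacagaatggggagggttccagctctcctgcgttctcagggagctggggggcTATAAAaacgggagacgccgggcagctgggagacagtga
Myl3: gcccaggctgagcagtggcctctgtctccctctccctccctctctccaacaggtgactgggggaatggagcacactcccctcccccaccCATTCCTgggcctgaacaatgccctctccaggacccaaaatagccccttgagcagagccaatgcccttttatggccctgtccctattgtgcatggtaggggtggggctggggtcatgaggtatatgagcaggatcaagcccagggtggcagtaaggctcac
Acta1: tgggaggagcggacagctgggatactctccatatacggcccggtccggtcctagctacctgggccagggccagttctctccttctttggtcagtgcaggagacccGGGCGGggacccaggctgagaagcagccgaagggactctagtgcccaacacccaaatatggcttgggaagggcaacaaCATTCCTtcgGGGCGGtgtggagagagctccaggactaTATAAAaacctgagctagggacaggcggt
The TATAAA of Nppa began 39 bases before the start and that of Acta1 29 bases before it. CATTCCT began 161 bases before the start in Myl3 and 67 bases before it in Acta1, which also held GGGCGG at 145 and 57 bases. A match is a description of the letters and was not tested as a binding site. In the same stretch, Myh6 (11717), Myh7 (9887) and Pln (9424) held none of the 3 motifs, while Tpm1 and Atp2a2 held matches. The printed stretches therefore do not stand for all bright cardiac genes.

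Across the thick filament list, 11 of 15 measured genes (73.3%) lay at or above the floor, beside 66.6% of all genes. In the brightest 10% lay 9, and the median percentile was 93.8. Myh6, Myl2, Myh7 and Myl3 were the brightest. They were followed by Ttn, the giant spring protein titin (5072), Mybpc3, cardiac myosin-binding protein C (3505), and the M-band proteins Myom2 (2361) and Myom1 (1002). The members below the floor were forms of skeletal or embryonic muscle and the atrial Mybphl: Mybpc1 read 5.3, the embryonic heavy chain Myh3 28.4, the fast light chain Myl1 36.2 and Mybphl 75.2. The fast-muscle Mybpc2 read 97.6, above the floor.

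The 2 myosin heavy chains read 11717 (Myh6) and 9887 (Myh7), a log2 gap of 0.24 that is below the median gap between probe sets of 1 gene. Their second probe sets read 4254 and 3095, in the same order. A further probe set that the annotation gives to both genes read 10348. Both the adult α form and the fetal β form were therefore bright, and the array does not order them.

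The light chains were set apart more clearly. Myl2, the ventricular regulatory chain, read 10236 and Myl7, its atrial counterpart, 484; Myl3, the ventricular essential chain, read 7782 and Myl4, the atrial and fetal essential chain, 1153. The gaps were 4.40 and 2.75 on the log2 scale, both above the 2.54 that bounded 90% of gaps within genes. With the geometric mean of probe sets in place of the brightest, the gap of Myl2 over Myl7 was 1.63, below that bound, because of the dim second probe set of Myl2.

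In the thin filament list, 11 of 14 measured genes (78.6%) lay at or above the floor, beside 66.6% of all genes. In the brightest 10% lay 9, and the median percentile was 97.4. Tnnc1, Tnnt2, Tpm1 and Tnni1 were the brightest. Troponin I, which holds actin and myosin apart at low calcium, was bright in both forms, with the slow skeletal, fetal form Tnni1 at 5600.5 and the cardiac form Tnni3 at 4286, a gap too small to order. For troponin T and troponin C the cardiac forms were the bright ones. Tnnt1 read 12.3 and Tnnc2 32.8, both below the floor, against 9574 for Tnnt2 and 10574 for Tnnc1. Fast troponin I, Tnni2 (108), lay near the reference level and fast troponin T, Tnnt3 (13), below the floor.

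Sarcomeric actin could not be split into its isoforms in full. Actc1, cardiac α-actin, had no probe set of its own, and the 3 probe sets that the annotation gives to Actc1 and smooth muscle Acta2 together read 12266, 10377 and 8257. Acta2 alone read 802 on its own probe set. Acta1 read 5075. Tpm1 (8772) and Tpm2, β-tropomyosin (2068), were not clearly apart. The Tpm1 probe sets designed for 1 transcript read 75.6 and 52.8, both below the floor. When only such probe sets were used the order turned, with a log2 ratio of -4.67. That value is a bound, since Tpm1 was raised to the floor and its bright probe sets were left out. The order also turned by the geometric mean, with -0.92. The nonmuscle tropomyosins Tpm4 (2461) and Tpm3 (748) and the pointed-end cap Tmod1 (1499) were also above the floor.

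All 24 measured genes of the Z-disc, costamere and desmin network lay above the floor, beside 66.6% of all genes. In the brightest 10% lay 18, and the median percentile was 96.6. After Ankrd1 came Cryab, the small heat shock protein αB-crystallin that binds desmin (6798), Actn2, sarcomeric α-actinin (4267), and Myoz2, a calcineurin-binding Z-disc protein (4184). Csrp3, the muscle LIM protein, read 3414, Fhl2 3245, Smpx 3016, Ldb3 2328 and desmin, Des, 1865. At the low end were Tcap, the titin cap (411), and Myoz1, the form of fast skeletal muscle (103). Actn1, the α-actinin of nonmuscle cells, read 1069.8 and was not clearly apart from Actn2, though by the geometric mean of probe sets the gap was 2.57, just past the bound.

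In the calcium cycling list, 21 of 24 measured genes (87.5%) lay above the floor, beside 66.6% of all genes. In the brightest 10% lay 11, and the median percentile was 83.0. Pln (9424), Atp2a2 (7777), the calcium buffer Casq2 (4218) and the sodium-calcium exchanger Slc8a1 (2786) were the brightest. Cardiac forms stood above skeletal ones in each family: Casq1 read 272, Atp2a1 83.6 and the release channel Ryr1 6.9, with Ryr2 at 1014. These 3 gaps exceeded the bound for probe sets of 1 gene, but by the geometric mean of probe sets the gap of Atp2a2 over Atp2a1 was 2.45, and that pair was then not clearly apart. The L-type channel subunits Cacna1c (385), Cacnb2 (621) and Cacna2d1 (444) and the store proteins Hrc (435) and Trdn (456) had middle signals. Sln, sarcolipin, the atrial inhibitor of the pump, read 134. Fkbp1b, the ryanodine receptor partner, read 3.3 on its 1 probe set, below the floor.

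Of 24 measured channels, pumps and gap junction genes, 14 (58.3%) lay at or above the floor, beside 66.6% of all genes, and 3 (12.5%) in the brightest 10%, with a median percentile of 43.6. Gja1, Atp1b1, a β subunit of the sodium pump (2221), Fxyd1, phospholemman, the regulator of that pump (1819), and Gja5, connexin 40 of atrium and conduction system (685), were the brightest. Gja1 was clearly apart from Gja5 by its brightest probe set, but its other probe sets read 1184 and 47.1, and by the geometric mean the gap was 1.23. The inward rectifier Kcnj2 (48.3), the transient outward channels Kcnd2 (59.4) and Kcnd3 (40) and the pacemaker channel Hcn4 (7.2) lay below the floor, while Kcnq1 (192), Kcnh2 (126) and Hcn2 (122) lay above it. The ATP-sensitive channel subunits Abcc9 (449) and Kcnj11 (299.5) were also above the floor.

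Cardiac transcription factors had a median percentile of 51.9, near that of all genes. Of 20 measured members, 13 (65%) lay above the floor, beside 66.6% of all genes, and 1 in the brightest 10%. That gene was Tead1, which binds MCAT elements (1774). Srf, the factor of CArG boxes (771), Mef2c (700.4), Gata4 (573), Hopx (535) and Nkx2-5 (476) followed. Gata6 read 334 and was not clearly apart from Gata4. Hand2, of the right ventricle, read 204 and Hand1, of the left, 55.8, the latter below the floor, as were the ventricular repressor Irx4 (44.1) and the conduction system factors Tbx3 (42.9) and Isl1 (34).

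Secreted products included the natriuretic peptides, the hormones of cardiac myocytes. Nppa (8022), Ccn2, connective tissue growth factor (4316), Nppb, B-type natriuretic peptide (3444), and Fstl1, a secreted follistatin-like glycoprotein (1919), were the brightest of 47 measured genes, of which 40 lay above the floor and 9 in the brightest 10%. The 40 were 85.1% of the measured list, beside 66.6% of all genes. Nppa and Nppb were not clearly apart. Vegfa, the endothelial growth factor, read 588, Tgfb3 825, Tgfb2 307 and Tgfb1 5.7, the last below the floor. Edn1, endothelin, read 106, the insulin-like factors Igf1 and Igf2 166 and 135, and the chemokine Ccl2 306. Interleukin 6, Il6 (31), angiotensinogen, Agt (37.4), and C-type natriuretic peptide, Nppc (35.6), lay below the floor.

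The receptors for such signals had the lowest median of the 22 functional lists, with 20 of 36 measured genes above the floor (55.6%, beside 66.6% of all genes) and a median percentile of 39.8. Igf2r, the mannose 6-phosphate and IGF2 receptor (2450.4), the thrombin receptor F2r (926), the shared cytokine subunit Il6st (803) and Bmpr1a (481) were the brightest. Among α1-adrenergic receptors, Adra1b read 422, Adra1d 101 and Adra1a 9, and the last was below the floor. Of the serotonin receptors, Htr2a read 104, Htr4 80, just under the floor of 81, and Htr2b 28.7, so only Htr2a was above it. The other probe sets of Htr2a read 78.7, 22.1 and 1.4, all below the floor. Its brightest lay under the highest signal of the other-organ genes, 139.5. Adrb1, the main β-adrenergic receptor of the ventricle, read 50.4, the angiotensin receptor Agtr1a 41.3, the natriuretic peptide receptor Npr1 12.8 and the neuregulin receptor Erbb4 8.4, all below the floor, whereas the muscarinic receptor Chrm2 (157) and Erbb2 (161) lay above it. A signal below the floor on 1 probe set says only that it was not above background here.

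**Figure D2:**
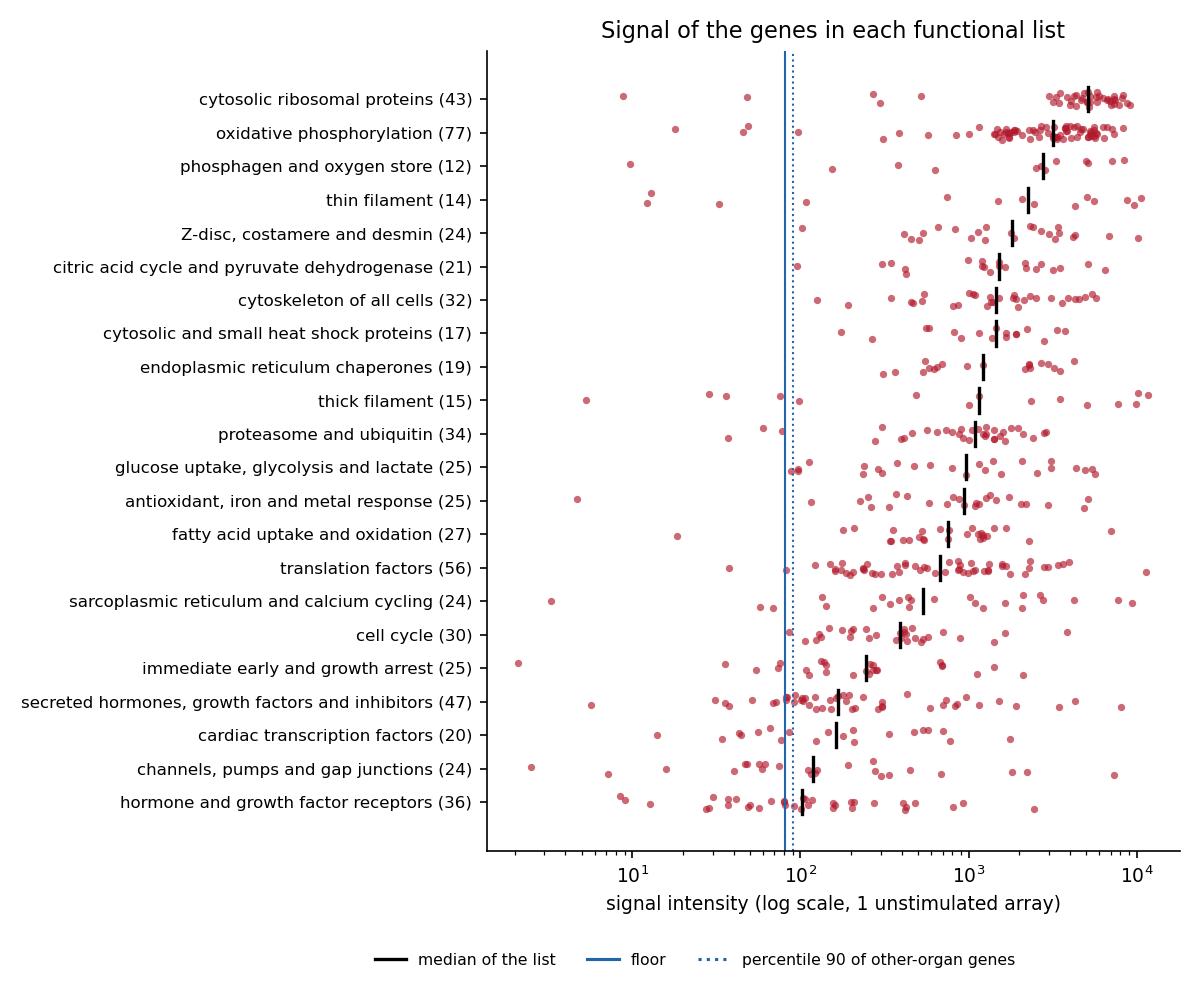
Signal of every measured gene (points, log axis) in 22 functional lists, ordered by their median (black bar), with the number measured in brackets; the solid line is the floor of 81 and the dotted line the reference percentile 90 of 90.3. Ribosomal and oxidative phosphorylation genes lie furthest right, and channels and receptors straddle the floor.

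Of 77 measured genes of oxidative phosphorylation, 74 (96.1%) lay above the floor, beside 66.6% of all genes. In the brightest 10% lay 70, and the median percentile was 98.4. Atp5f1b (8331), Cox6c (7317), Atp5mc3 (7158) and Cox4i1 (6677) were the brightest, and all 4 belong to ATP synthase or cytochrome oxidase. The 3 below the floor were Cox4i2 (45.7), Cox6b2 (18) and Ndufa4l2 (48.6), which are forms of other tissues or of hypoxia. Cytochrome oxidase has heart and muscle forms of some subunits and general forms of others. Cox6a2, the heart form, read 5150 and Cox6a1, the general form, 3199. Cox8b and Cox8a read 4627 and 5119.8, and neither pair was clearly apart. Cox7a1, the heart form of subunit 7A, read 97.1, and the probe set shared by Cox7a2 and a related copy read 8255.

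Carriers and the phosphagen system had 11 of 12 measured genes (91.7%) above the floor, beside 66.6% of all genes, and 8 in the brightest 10%. The brightest were Slc25a4, the phosphate carrier Slc25a3 (7086), the outer membrane channel Vdac3 (5101) and Slc25a5, the general adenine nucleotide translocator (4977), which was not clearly apart from Slc25a4. Mb, myoglobin, read 3296. For creatine kinase the muscle form Ckm (2687) was clearly apart from the brain form Ckb (153), with a log2 gap of 4.13. Each gene had 1 probe set, and Ckb also lay above the floor. Of the mitochondrial forms, the sarcomeric Ckmt2 read 380 and Ckmt1 9.7, below the floor.

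All 21 measured genes of the citric acid cycle and pyruvate dehydrogenase lay above the floor, beside 66.6% of all genes. In the brightest 10% lay 16, led by Mdh1 (6498), Idh2 (5112), Pdha1 (3480.4) and Mdh2 (3164). Pdk4, the kinase that shuts pyruvate dehydrogenase off when fat is burnt, was the dimmest at 94.9. Fatty acid uptake and oxidation had 26 of 27 genes (96.3%) above the floor, beside 66.6% of all genes, and 12 in the brightest 10%. The list was led by Fabp3, the heart fatty acid binding protein (6992), Hadhb (2303), Etfb (1663) and Fabp5 (1424). Its 1 member below the floor was Fabp4 (18.4), the binding protein of adipocytes and capillary endothelium. Carnitine palmitoyltransferase 1, the gate of mitochondrial fat import, was present in both forms, with the muscle form Cpt1b at 542 and the liver form Cpt1a at 442, not clearly apart.

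All 25 measured genes of glucose uptake, glycolysis and lactate lay above the floor, beside 66.6% of all genes. In the brightest 10% lay 13, and the median percentile was 92.0. Ldhb (5676), Aldoa (5400), Ldha (4943) and Eno1 (4336) were the brightest. In 5 of the 9 measured isoform pairs of this pathway the members were clearly apart: Aldoa, the form of muscle and most tissues (5400), over Aldoc (593), Eno1 over the muscle form Eno3 (288), Pgam1 (2556) over the muscle form Pgam2 (378), Hk1 (800.4) over the insulin-responsive Hk2 (97.1), and the lactate carrier Slc16a1 (1565) over Slc16a3 (238). The Hk1 pair rests on 1 probe set of each gene, and the array's 3 control probe sets for Hk1 read 197, 112 and 64.2, of which the brightest is within the bound of Hk2. The other 4 pairs could not be ordered. These were the heart and muscle chains of lactate dehydrogenase (Ldhb and Ldha), Slc2a1 (473) and the insulin-responsive glucose transporter Slc2a4 (305), Pfkm (1397) and Pfkp (1249), and the brain and muscle glycogen phosphorylases Pygb (1148) and Pygm (962). Gapdh was measured by a probe set shared with a related copy, at 9117, and by control probe sets.

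**Figure D3:**
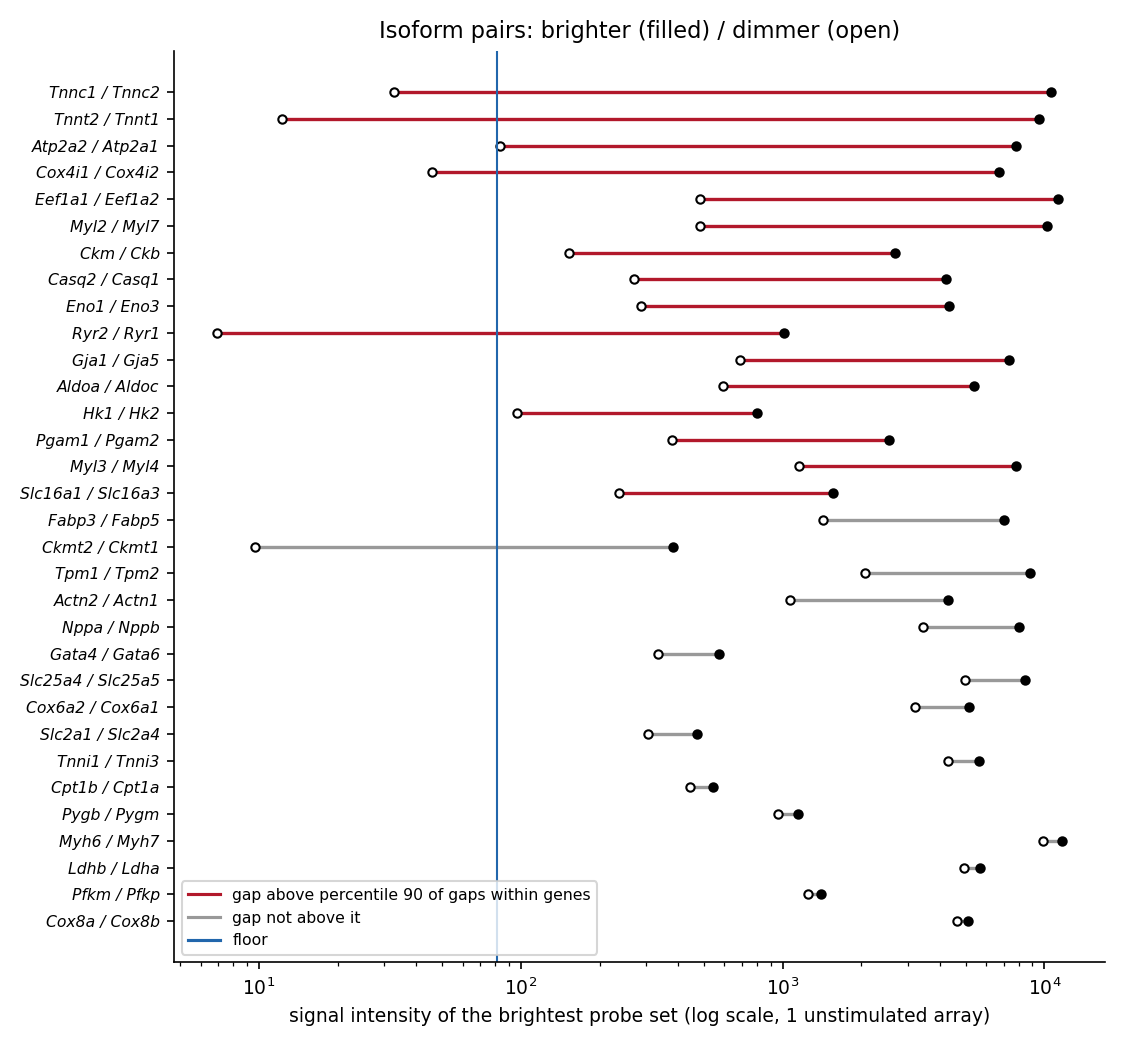
Signals of the brighter (filled) and dimmer (open) member of 32 isoform pairs on a log axis; red lines mark the 16 pairs whose gap, with signals below the floor of 81 (blue line) set to it, exceeded percentile 90 of the gaps between probe sets of 1 gene. Troponin C and troponin T show the widest gaps, and Cox8a and Cox8b the narrowest.

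Of 36 isoform pairs, 32 could be measured, and 16 of them were clearly apart, 4 by a bound against the floor. Besides those named, Eef1a1 (11293) was apart from Eef1a2, the form of muscle and neurons (482), and Cox4i1 (6677) from Cox4i2 (45.7). Fabp3 over Fabp5 had a gap of 2.30, just inside the bound, and Slc16a1 over Slc16a3 one of 2.72, just outside it. For the pairs of myosin heavy chain, troponin I and lactate dehydrogenase the gaps were 0.24, 0.39 and 0.20 in size.

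The machinery of protein synthesis held many of the brightest genes. Of 43 measured cytosolic ribosomal proteins, 41 (95.3%) lay above the floor, beside 66.6% of all genes, and 38 in the brightest 10%. The list had a median percentile of 99.4 and a median signal of 5119. Rpl3l (8.8), the striated muscle form of Rpl3 that appears after birth, lay below the floor, and so did the single probe set of Rpl30 (48.2), although a probe set shared between Rpl30 and its copies read 5891. Translation factors had 55 of 56 genes (98.2%) above the floor, beside 66.6% of all genes, and 26 in the brightest 10%. After Eef1a1 came Eef1g (3960), Eef2, the translocation factor (3667), and Eif4g2 (3396). Proteasome and ubiquitin genes had 31 of 34 (91.2%) above the floor, beside 66.6% of all genes. In the brightest 10% lay 22, led by Psmb4 (2876), Psma6 (2813), Psma2 (2416) and Psmb5 (2117). The 3 below the floor were the immunoproteasome subunits Psmb8 (59.8), Psmb9 (37.2) and Psmb10 (77.5), which interferon induces.

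Genes of the general cytoskeleton were all above the floor, 32 of 32, beside 66.6% of all genes, and 25 lay in the brightest 10%. Tmsb4x, the actin-sequestering thymosin β4 (5755), Actg1, cytoplasmic γ-actin (5410.3), S100a11 (4908) and Lgals1, galectin 1 (4543), were the brightest, followed by Vim, the intermediate filament of mesenchymal cells (4317). The 2 probe sets shared by Actb and Actg1 read 8588 and 7707.

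All 17 measured cytosolic, mitochondrial and small heat shock proteins lay above the floor, beside 66.6% of all genes. In the brightest 10% lay 13, led by Hsp90ab1 (3747), the mitochondrial chaperonins Hspd1 (3337) and Hspe1 (2819), and Hspb1 (2224). The stress-inducible Hspa1a (175) was the dimmest. All 19 endoplasmic reticulum chaperone and stress genes were above the floor, beside 66.6% of all genes. In the brightest 10% lay 11, led by Hspa5, the chaperone BiP (4264), the collagen chaperone Serpinh1 (3479), P4hb (3232) and Pdia6 (2956). Antioxidant, iron and metal response genes had 24 of 25 (96%) above the floor, beside 66.6% of all genes. In the brightest 10% lay 15, with Txn1, thioredoxin (5103), Sod1, cytosolic superoxide dismutase (4859.5), Gpx1 (2979) and Gstp1 (2183) in front. Heme oxygenase, Hmox1, read 372.

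Immediate early and growth arrest genes had a median percentile of 63.7. Of 25 measured, 20 (80%) lay above the floor, beside 66.6% of all genes, and 3 in the brightest 10%. These 3 were Btg1, which restrains proliferation (2108), Txnip, the thioredoxin-binding protein (1416), and Ier3 (1118), and the cyclin-dependent kinase inhibitor Cdkn1b followed at 699. Among the classical immediate early genes, Fos (54.7) and Fosb (2.1) lay below the floor, and Egr1 (269) and Jun (280.3) above it. All 30 measured cell cycle genes lay above the floor, beside 66.6% of all genes. Their median percentile was 76.7, and 4 lay in the brightest 10%. H2az1, a histone variant (3843), the replication clamp Pcna (1637), Stmn1 (1415) and Ccnd2, cyclin D2 (885), were the brightest. Genes of mitosis varied in signal, with Cdk1 at 534, Mki67, the Ki-67 antigen, at 429, Ccnb1 at 426 and Top2a at 369. Plk1 (205) and Birc5 (177) were dimmer. Aurka (133), Aurkb (128.5) and Bub1b (106) lay under the highest signal of the other-organ genes, 139.5. The array does not say which cells held these transcripts.

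Marker lists were set beside the label of ventricular myocytes. Of 13 measured ventricular myocyte markers, 11 (84.6%) lay above the floor, beside 66.6% of all genes. The same 11 lay in the brightest 10%, and the list had a median percentile of 99.8. The 2 below the floor were Irx4 (44.1) and Kcnj2 (48.3). Cardiac forms in the list, such as Tnnt2 and Ryr2, are not particular to the ventricle, so the count does not test the chamber. Of 10 atrial markers, 8 (80%) lay above the floor, beside 66.6% of all genes, and 2 in the brightest 10%. These were Nppa, which fetal and cultured ventricular myocytes also express, and Myl4 (1153). Gja5 (685) and Myl7 (484) followed. Of 7 conduction cell markers only Cacna1g (269) was above the floor (14.3%, beside 66.6% of all genes), and Hcn4 read 7.2 and Shox2 61.7. In a bulk sample, fewer cells of a type and less RNA per cell cannot be told apart, so these counts give no share of cells.

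Fibroblast and matrix genes lay mostly above the floor. Of 30 measured markers, 27 (90%) did, beside 66.6% of all genes. In the brightest 10% lay 9, and the median percentile was 71.2. Mgp, matrix Gla protein (3825), Col3a1, type III collagen (2959), Col1a2 (2454) and Fn1, fibronectin (2372), were the brightest, with Col1a1 at 2109.7 and Sparc at 1995. The more selective fibroblast markers were dimmer, with Postn, periostin, at 769, Ddr2 at 369.5 and Dcn, decorin, at 178. Thy1 at 128, Pdgfra at 111 and Tcf21 at 83.5 lay under the highest signal of the other-organ genes, 139.5. Those below the floor were Dpt (62.1), Fbln1 (61.2) and Col6a2 (50.4).

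Smooth muscle and pericyte markers had 11 of 15 members (73.3%) above the floor, beside 66.6% of all genes, and 4 in the brightest 10%. These were Myl9 (2489.6), Tagln, SM22 (1874), Synpo2 (1089.8) and Acta2 (802), which newborn myocytes and cultured fibroblasts can also express. The other probe sets of Synpo2 read 71.5 and 33.3, both below the floor. Acta2 was barely in the brightest 10%, at 802.4 against a cut of 802.2. The smooth muscle myosin Myh11 read 297 and calponin, Cnn1, 266. The pericyte markers were split. Rgs5 (36.9), Kcnj8 (46.7) and Cspg4 (75.5) lay below the floor, and Abcc9 (449), Pdgfrb (118) and Notch3 (103) above it. Pdgfrb and Notch3 lay under the highest signal of the other-organ genes, 139.5.

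Endothelial markers lay mostly below the floor. Above it were 6 of 17 (35.3%), beside 66.6% of all genes and 19.7% of other-organ genes. These were Cav1 (1052), which muscle and fibroblasts also make, Egfl7 (193), Esam (170.4), Emcn (121), Ly6e (113) and Eng (104). All 6 exceeded the reference percentile 90 of 90.3, and Cav1, Egfl7 and Esam exceeded the highest other-organ signal, 139.5. The 11 below the floor included Pecam1 (20.7), Vwf (14), Kdr (73.6) and Tie1 (61.4).

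Macrophage and monocyte markers had 4 of 17 above the floor, Cd74 (129), Cybb (120.4), Aif1 (97.3) and Fcer1g (89.9), while Ptprc, the pan-leukocyte antigen CD45, read 14.6 and Cd68 8.7. Lymphocyte and mast cell markers had 3 of 14, Lck (117), Cpa3 (85.5) and Cd4 (81.3), the last at the level of the floor. These shares of 23.5% and 21.4% lay close to the 19.7% of the genes of other organs, beside 66.6% of all genes. Of 7 erythroid markers, 2 (28.6%) were above the floor, beside 66.6% of all genes. These were Slc4a1 (141) and Epor (94.9). The β-globin gene Hbb (58.3) and Alas2 (48.2) lay below it. However, 3 probe sets shared by the α-globin genes Hba-a1 and Hba-a2 read 158, 179.5 and 267.5.

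Of 17 Schwann cell and neuron markers, 2 (11.8%) were above the floor, beside 66.6% of all genes. Pmp22 (507) is also made by fibroblasts, and Uchl1 read 254, while Sox10 (17.4), S100b (73) and Th (48.7) lay below. Among 6 epicardial and mesothelial markers, 4 (66.7%) were above the floor, beside 66.6% of all genes. These were Msln (144), Aldh1a2 (123), Krt8 (108) and Krt18 (91.6), and Wt1 read 49.2. Only Msln exceeded the highest signal of the other-organ genes, 139.5. None of 6 adipocyte markers reached the floor, whereas 66.6% of all genes did. Of 16 skeletal muscle markers, 4 (25%) reached it, beside the same 66.6%. These were Myh1 (2409), Tnni2 (108), Myog (98.9) and Atp2a1 (83.6). Myod1 read 2.4 and the parvalbumin gene Pvalb 5.3.

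**Figure D4:**
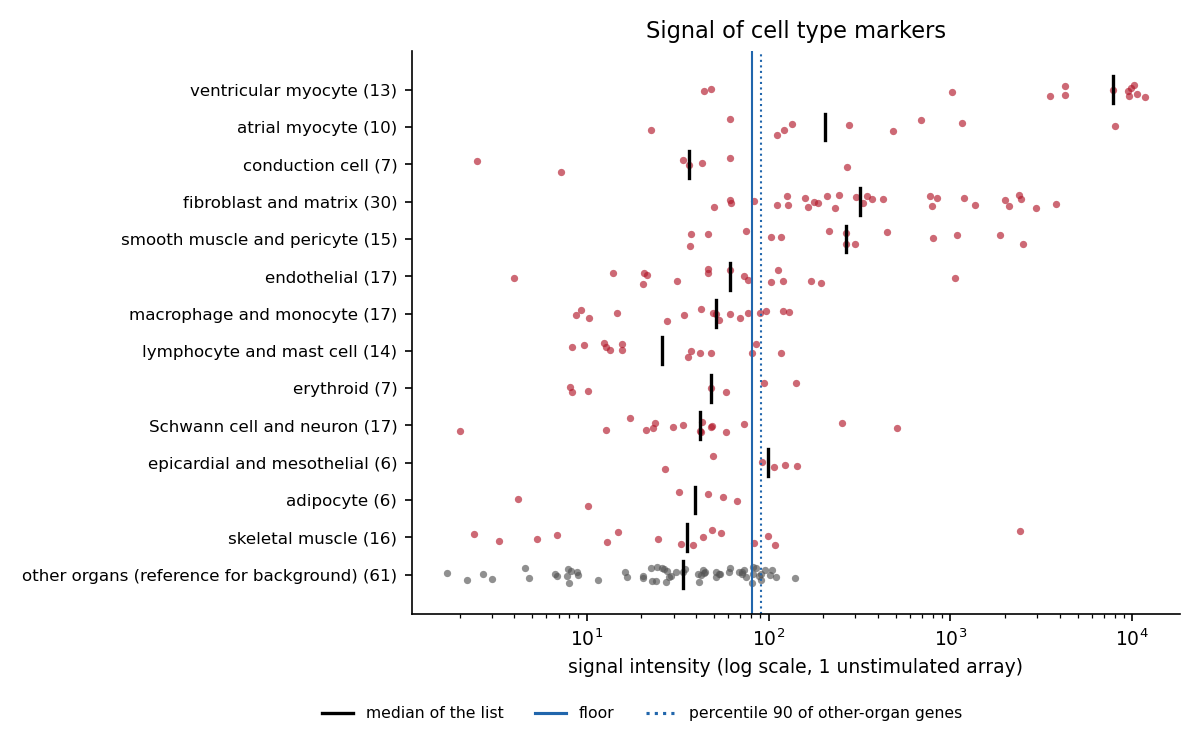
Signal of every measured marker (points, log axis) of 13 cell types and of 61 genes of other organs (grey), with the list median as a black bar, the floor of 81 as a solid line and the reference percentile 90 of 90.3 as a dotted line. Ventricular myocyte markers have a median of 7782, fibroblast and smooth muscle markers spread across the range, and blood, endothelial, neural and adipocyte medians lie below the floor.

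Promoter sequence, which the ranking did not use, was set beside the signal for the 8106 measured genes with a single promoter window of 300 bases in the RefSeq table. GGGCGG was found in 41.8% of genes in the dimmest decile of signal and 67.5% in the brightest, beside 59.9% of the 8106 genes. All 33469 windows in the table, which include genes not measured here, gave 33.1%. The median share of G and C differed likewise, at 56% in the dimmest decile, 61.3% in the brightest and 51.7% over all windows. TATAAA was found in 15.7% of genes in the dimmest decile, 4.52% in decile 6 and 8.38% in the brightest, against 14.2% of all windows. Among the 84 brightest genes of this set, those in the top 1%, 15 (17.9%) held TATAAA, 47 (56.0%) GGGCGG and 8 (9.52%) CATTCCT. The MCAT motif was found in 4.01% of the 8106 genes and 5.17% of all windows. Among 48 contractile and calcium genes above the floor, 5 (10.4%) held CATTCCT, and Acta1 and Myl3, printed above, were among them. TATAAA was held by 5 (10.4%), beside 8.67% of the 8106 genes, and GGGCGG by 24 (50%), beside 59.9%. The genes in the middle of the range were the ones with fewest TATAAA matches.

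**Figure D5:**
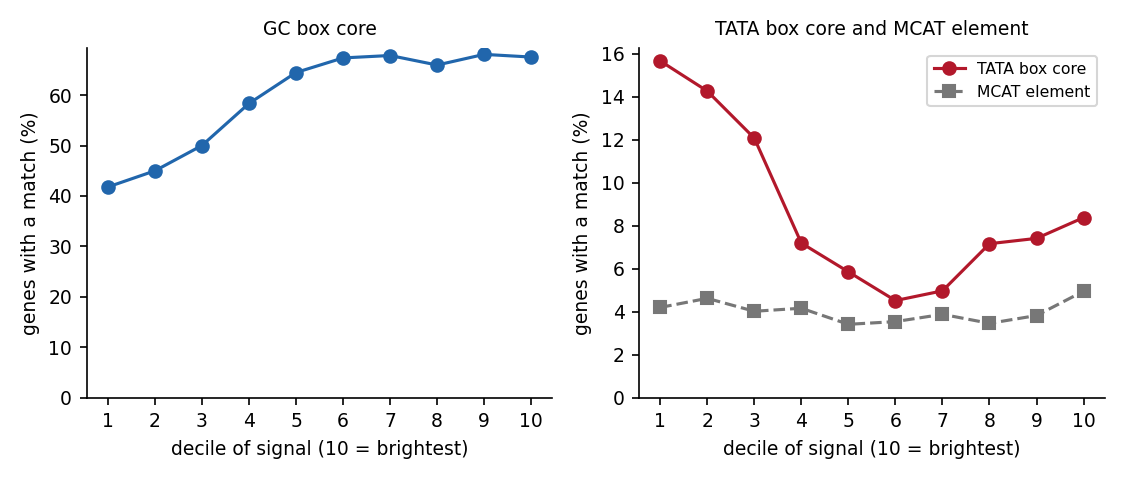
Share of genes whose 300-base promoter window held the GC box core (left) or the TATA box core and the MCAT element (right), on both strands, by decile of signal. The GC box core was least frequent in the dim deciles, and the TATA box core was least frequent in decile 6.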

How the data were processed

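The authors deposited 1 signal intensity per probe set and array on a linear scale, and for the software, settings and scaling behind them nothing is given in the sources used here. Only the column of the unstimulated array was read. Of its 15923 probe sets, 57 controls were left out of the ranking. In the platform annotation 12783 of the other probe sets carried 1 gene symbol, 312 several and 2771 none. The symbols were brought up to date by gene ID from RefSeq's rat gene table, which held 12748 of them, and only probe sets with 1 symbol entered the ranking. A gene was represented by its brightest probe set, and the values were not rescaled, since ranks within 1 array do not depend on it. The floor was percentile 40 of the non-control probe sets. Members, lists and pairs were chosen with earlier results of these data known. The lists for oxidative phosphorylation, ribosomal proteins, translation factors and the proteasome were drawn by patterns in gene symbols. Genes were named as follows: the 30 of highest signal, the 4 brightest of each list, all members above the floor where fewer than 50% were, all isoform pairs and the 10 brightest probe sets without a single symbol. Other members are named as background-level or known counterparts and were chosen after their values were seen. Protein length was planned as a description and was not analysed here. Python 3.11.15, numpy 2.4.6, pandas 2.3.3 and matplotlib 3.10.9 were used. Alternatives covered the floor, the choice of probe set and the handling of shared probe sets.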

Additional observations from a re-analysis of the deposited data

How the results depend on the processing

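With 1 array there was no replicate to leave out and no paired analysis was possible because no group had more than 1 sample. The number of genes at or above the floor was 8364 with the floor at percentile 25, 5889 at percentile 50, 6639 at the reference percentile 90, 6623 with the geometric mean of probe sets, 6699 with unmarked probe sets only and 7383 with shared probe sets counted, beside 6935. Counts of members above the floor stayed within 1.5 times of the main value under these settings, apart from the following. With the floor at percentile 25 (43.8), the counts were 2 for conduction cells, 11 endothelial, 10 macrophage, 4 erythroid, 6 Schwann cell and neuron, 3 adipocyte and 26 other-organ genes. At percentile 50 (117.9) they were 2 macrophage, 0 lymphocyte and mast cell, 1 erythroid, 2 epicardial, 1 skeletal muscle and 1 other-organ gene. At the reference percentile 90 (90.3) they were 1 lymphocyte and mast cell and 7 other-organ genes. The geometric mean left 1 erythroid marker, unmarked probe sets left 0 conduction and 1 Schwann cell and neuron marker, and shared probe sets gave 4 erythroid markers, the α-globin genes included. Among genes with 1 probe set, which are fewer by construction, members in the brightest 10% were 4 of the thin filament, 11 Z-disc, 5 calcium cycling, 1 channel, 0 transcription factor, 1 receptor, 6 ventricular, 5 fibroblast, 0 endothelial and 0 skeletal muscle genes. Of the 30 brightest genes, 24 stayed with the geometric mean, 27 with unmarked probe sets and 16 when shared probe sets were counted. Isoform pairs clearly apart numbered 14, 17 and 17 under the same settings, beside 16, and no pair clearly apart turned its order. By the geometric mean the log2 gap of Tnnt2 over Tnnt1 was 3.45 and that of Atp2a2 over Atp2a1 2.45. A search on the sense strand alone, from 50 to 11 bases before the start, was added after seeing the data and found TATAAA in 6.05% of genes below the floor, 1.22% of those between it and the brightest 10%, 3.07% of the brightest 10% and 9.52% of the top 1%.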

Other observations

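Some of the brightest probe sets had no single gene symbol and so no place in the ranking. Of 2771 probe sets without a symbol in the annotation, 1266 (45.7%) lay at or above the floor and 91 reached the signal of the brightest 10% of genes. Of 312 with several symbols, 225 (72.1%) and 113 did. The brightest 10 of these were 1370856_at (12266) and 1374352_at (10377), both assigned to Acta2 and Actc1, 1398248_s_at (10348), assigned to Myh7 and Myh6, 1367557_s_at (9117), assigned to Gapdh and a copy, 1398835_at (8588), assigned to Actb, Actg1 and a copy, 1367634_at (8403.5), assigned to Rpl31 and copies, and 4 unnamed here, 1388159_at (10743.5), 1375340_at (10369.9), 1375651_at (9932) and 1375108_at (8746). Only 3 genes exceeded 1388159_at, so the ranking of named genes does not hold every abundant transcript on the array.

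Myh1, the fast skeletal myosin heavy chain 2X, had the highest signal of the skeletal muscle list. Its 5 own probe sets read 2409, 2164, 1746, 1108 and 1024, whereas the probe set assigned to Myh2, Myh1 and Myh8 together read 33.2. The other fast skeletal genes Myh2 (54.9), Myh4 (3.3), Actn3 (48.9), Tnnc2 (32.8) and Ryr1 (6.9) lay below the floor. Which transcript the 5 probe sets detect was not tested.

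Some members of bright lists were dimmer on their own probe sets than on shared ones. Cox5a of cytochrome oxidase read 311 alone and 5595 on a probe set shared with a related copy, and Psma3 of the proteasome read 459 and 2172. Hk1 had a control probe set series of 197, 112 and 64.2 from the 3′ to the 5′ end, a ratio of 3.07, beside 1.72 for Actb and 1.04 for Gapdh. The ranked Hk1 probe set read 800.4.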
